A study of Danio rerio with 1324 samples.

Results

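The gene ucn3l encodes the zebrafish form of urocortin 3, a small peptide of the corticotropin-releasing hormone family. It was followed here as the row with that symbol, 1 of the 31916 genes in the tables, whose identifier (ENSDARG00000087241) the table of names lists as UCN3, a spelling that RefSeq gives as a synonym of ucn3l. In mouse islets, urocortin 3 is stored with insulin in beta-cells, is released with it and acts on the receptor CRHR2 of neighbouring delta-cells, which then secrete somatostatin and restrain insulin release. Its level in mouse beta-cells is low at birth and rises as the cells acquire their response to glucose, so the gene is widely used as a marker of mature beta-cells. The levels below ask whether the zebrafish gene followed the age of the fish.

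Single beta-cells of the strain Tg(ins:BB1.0L), in which the insulin promoter drives a fluorescent reporter, were sorted from zebrafish aged 1 to 14 months post fertilisation (mpf), and the mRNA of each cell was sequenced. The tables have columns for 1014 of 1324 labelled cells in 15 groups. A group was taken as 1 pool, since cells that share fish and processing are not independent replicates. By the study's methods the groups of 3 mpf and 6 mpf each joined 2 batches from different days. The main fits keep each such group as 1 pool. Counts are given for 637 cells of the 7 training ages (1, 3, 4, 6, 10, 12 and 14 mpf), and TPM (transcript levels corrected for gene length, with the same total in every cell) for all. By the study's methods a batch came from 6 fish, and the stages were 'Juvenile' (1 mpf), 'Adolescent' (3 to 6 mpf) and 'Adult' (10 mpf and older).

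One group repeats cells of another. Each of the 30 cells labelled as a new batch of 1 mpf matched 1 cell of the 1 mpf training pool, with Pearson's r = 0.974 to 0.997 for log2(TPM + 1) over 11149 genes, whereas its next match had at most 0.625 and no other 2 cells of the series exceeded 0.796. These 30 columns were taken as second records of the same cells and were counted once, through the training pool, which leaves 984 cells in 14 pools. A ucn3l read was present in 7 of the 30 cells in the new batch and in 9 of them in the training pool, with 7 in common. Which of the labels gives the origin of these cells cannot be told, and the values with the new batch as a pool of its own are given beside the results that change with it.

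Normally fed fish gave 11 such pools on plates, namely the 7 training ages, a new batch of 4 mpf, and fish of 1.5 mpf (45 days), 9 mpf and 13 mpf. The remaining pools were 3 mpf cells from a Fluidigm C1 chip and 2 pools of 4 mpf siblings that had been fed 3 times a day or on alternate days for a month. All fish carried the transgene, and sex is not given in the labels. The C1 chip gave 13 cells and the other pools at least 35; depending on the pool, the median cell had 274026 to 1162067 reads and 2038 to 4722 detected genes. The sorted cells were rich in insulin mRNA: ins took 51.4% to 74.7% of the TPM, on average over the cells of a pool, and had a read in 100% of the cells. In 12 cells ins took less than 10% of the TPM, 6 of them in the 4 mpf training pool, and 1 of the 12 had a ucn3l read. Summed glucagon-type markers of alpha-cells ranged between pools from 110 TPM (4 mpf fed 3 times a day) to 26511 TPM (4 mpf training pool), and somatostatin-type markers of delta-cells from 20.5 TPM (C1 chip) to 41401 TPM (6 mpf). Of the acinar markers with a row, no pool had more than 197 TPM in sum. Summed duct markers reached 96.3 TPM (1 mpf), immune markers 44.4 TPM (4 mpf training pool) and endothelial markers 0.70 TPM (1 mpf). The epsilon-cell marker ghrl ranged from 0 TPM (C1 chip) to 9005 TPM (14 mpf). The red cell marker hbaa1 was at 0 in every cell.

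In most cells the transcript was either plentiful or not seen at all. A ucn3l read was found in 392 of the 984 cells (39.8%). In those 392 cells the median level was 309 TPM, resting on a median of 71 reads, and 78.6% of them had at least 100 TPM. Levels between 0 and 10 TPM occurred in 23 cells, between 10 and 100 TPM in 61, between 100 and 1000 TPM in 225, and at 1000 TPM or more in 83. In 98.3% of the cells without a read, 3 reads, the number that a count of 0 allows, would have amounted to less than 100 TPM. That bound concerns the sampling of reads only, so it cannot show that the transcript was absent from those cells. In 35 of the 392 cells fewer than 5 reads were counted.

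**Figure D1:**
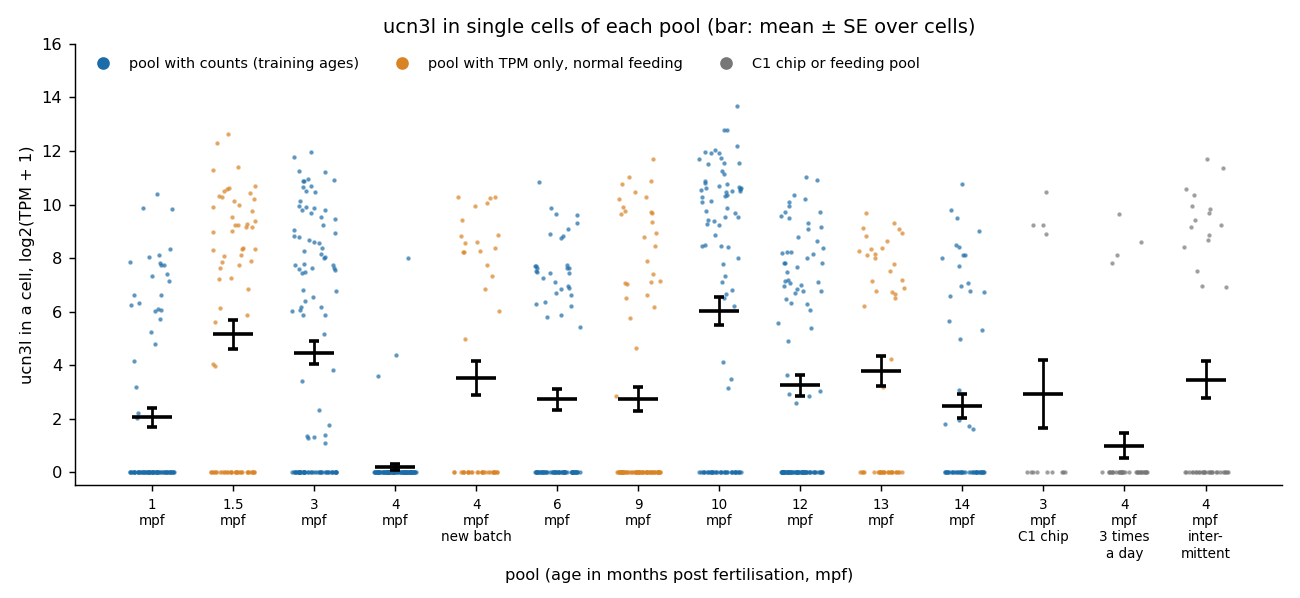
Each point is the ucn3l level of 1 cell as log2(TPM + 1), by pool in order of age with the C1 chip and feeding pools at the right; bars give the mean ± SE over cells. In every pool many cells lie at 0 and most of the others well above it, and the 4 mpf training pool has 3 cells above 0 where the 10 mpf pool has 57.

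The share of ucn3l-positive cells went through the ages without a steady course. At 1 mpf it was 31.03% (27 of 87 cells, exact 95% interval 21.5% to 41.9%), and in the repeat records of 30 of these cells 23.3%. At 1.5 mpf the share was 58.1% (43 of 74 cells, 46.1% to 69.5%). At 3 mpf it was 57.8% (63 positive cells, 47.96% to 67.2%). The 4 mpf pools were far apart, with 41.3% in the new batch (19 of 46 cells, 26.997% to 56.8%) and 3.41% in the training pool (3 of 88 cells, 0.709% to 9.64%). The share was 35.6% at 6 mpf (32 of 90 cells, 25.7% to 46.3%) and 32.6% at 9 mpf (28 of 86 cells, 22.8% to 43.5%). The highest share of any pool was at 10 mpf, with 61.96% (57 of 92 cells, 51.2% to 71.9%). It was 43.2% at 12 mpf (48 positive cells, 33.9% to 52.98%), 50% at 13 mpf (25 of 50 cells, 35.5% to 64.5%) and 38.3% at 14 mpf (23 of 60 cells, 26.1% to 51.8%). These intervals cover counting error only, since the reads carry no molecular identifiers and the cells of a pool come from 1 batch of fish, or 2 at 3 and 6 mpf.

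At equal depth the lowest pool was the same, and 1.5 mpf stood level with 10 mpf at the top. With every cell thinned to 100000 reads, the share was 2.30% in the 4 mpf training pool, 60.3% at 1.5 mpf and 60% at 10 mpf. For this, 24 cells under that depth were left out. Thinning cannot add a read to a cell. The rises at 1.5 mpf (from 58.1%) and 6 mpf (from 35.6% to 37.3%) thus came from the 6 and 7 cells left out there. In the 4 mpf training pool 3 reads were worth a median of 21.7 TPM, close to the 19.8 TPM at 9 mpf, where the share was 32.6%. The 3 positive cells of the 4 mpf training pool had a median of 19.9 TPM, against medians of 96.6 to 1266 TPM in the positive cells of the other plate pools. The value of 19.9 TPM lies near the floor. It rests on a median of 2 reads, with fewer than 5 reads in 2 of the 3 cells. In 1 of the 3, ins took 0.316% of the TPM.

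Averaged over all cells of a pool as log2(TPM + 1), ucn3l was highest at 10 mpf (6.02 ± 0.53, SE over 92 cells), followed by 1.5 mpf (5.16 ± 0.54, 74 cells), 3 mpf (4.46 ± 0.42) and 13 mpf (3.79 ± 0.56, 50 cells). In the middle lay the new batch of 4 mpf (3.501 ± 0.64, 46 cells), 12 mpf (3.24 ± 0.38), 9 mpf (2.74 ± 0.45, 86 cells), 6 mpf (2.72 ± 0.40, 90 cells) and 14 mpf (2.47 ± 0.46, 60 cells). At the low end were 1 mpf (2.06 ± 0.35, 87 cells) and the 4 mpf training pool (0.18 ± 0.11, 88 cells). On the linear scale the mean was 1121 TPM at 10 mpf, 547 TPM at 1.5 mpf, 69.6 TPM at 1 mpf and 3.25 TPM in the 4 mpf training pool. The median cell had 301 TPM at 10 mpf, 130.8 TPM at 1.5 mpf, 13.0 TPM at 3 mpf and 4.04 TPM at 13 mpf, and 0 TPM in each of the other 10 pools. Because the pool mean joins the share of positive cells with the level in them, a fall in either gives a lower mean.

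Pools of the same age lay as far apart as the plate pools in general. The 2 batches that the columns part within 3 mpf had means of 6.95 (35 cells, 74.3% positive) and 3.28 (74 cells, 50% positive), and those within 6 mpf 3.58 (51 cells, 47.1% positive) and 1.60 (39 cells, 20.5% positive). At 4 mpf the new batch lay 3.32 log2 units above the training pool. From these 3 pairs the SD between pools of one age was 2.18 log2 units, against 1.58 over the 11 plate pools, and 21.3 percentage points for the share of positive cells, against 16.5. These SDs are not like for like. The first rests on 3 differences and takes the batches of 3 and 6 mpf apart, whereas the 11 plate pools join them. None of the 10 steps between neighbours in the order of the 11 levels reached 2.18, the widest being 1.87 between 1 mpf and the 4 mpf training pool. Steps in a sorted order are small by construction, so they cannot decide whether ages differ. The whole order spanned 5.84. Membership of a pool accounted for 13.6% of the variance of the level over the 893 cells of these pools, so most of the variation lay among the cells of a pool.

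**Figure D2:**
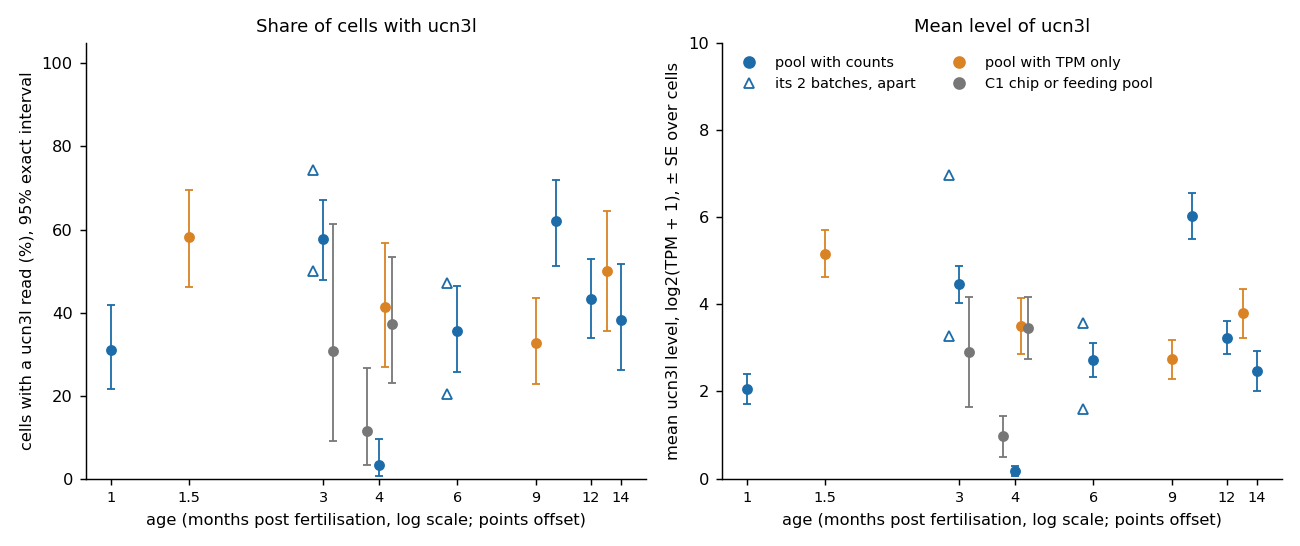
Left, share of cells with a ucn3l read (95% exact interval) and, right, mean level (± SE over cells), against age on a log scale; open triangles show the 2 batches of 3 mpf and of 6 mpf apart. Pools of one age lie as far apart as pools of different ages, for example with 41.3% of cells in the new batch and 3.41% in the training pool of 4 mpf.

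Level, share and spread showed no relation with age that passed a test. Over the 11 plate pools the level had Pearson's r = 0.0774 (permutation p = 0.822) and Spearman's rho = 0.0273 (permutation p = 0.940). Over the 7 training pools r was 0.276 (exact permutation p = 0.554) and rho 0.250 (exact permutation p = 0.595). For the share of positive cells r was 0.139 (permutation p = 0.702) and rho 0.141 (permutation p = 0.680). For the SD over the cells of a pool r was 0.151 (permutation p = 0.723) and rho -0.0683 (permutation p = 0.841). Adjusted over these 8 two-sided tests each p was 0.940. Without the 4 mpf training pool r over plate pools turned to -0.0838 for the level, -0.0371 for the share and -0.0809 for the SD. Without the 13 and 14 mpf pools, the 2 farthest from the median age, r over plate pools was 0.170 for the level, 0.119 for the share and 0.237 for the SD, and without 12 and 14 mpf it was 0.606 for the level over the 5 training pools that remain. With the new batch of 1 mpf as a pool of its own r was 0.183 for the level (permutation p = 0.567), 0.235 for the share and 0.231 for the SD.

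The question of maturation was put most directly by the step out of the 'Juvenile' stage, which rests on 1 'Juvenile' pool. Of the 10 plate pools older than 1 mpf, 9 had a higher level than the 1 mpf pool, and 9 a higher share of positive cells; the exception in both was the 4 mpf training pool. The 8 'Adolescent' and 'Adult' pools averaged 3.30 ± 1.68 (SD over pools) and the 'Juvenile' pool had 2.06, a difference of 1.24 (exact permutation p = 0.444, two-sided, smallest possible p 0.222). Without the 4 mpf training pool the difference was 1.69, and without 10 mpf 0.85. With the new batch of 1 mpf as a second 'Juvenile' pool the difference was 1.496 (exact permutation p = 0.267, with the repeated cells taken as an independent pool).

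In limma, fitted on pool means of log2(TPM + 1) for all genes with Benjamini-Hochberg adjustment, 'Adult' minus 'Juvenile' was 1.82 ± 1.42 (SE) for ucn3l, adjusted p = 0.286. Here the lone 'Juvenile' pool is assumed to vary like the pools of the other stages. Of the 7305 genes tested 44% passed in this contrast, 0.0958% of them higher and 43.9% lower, and the median over all genes tested was -1.01. In sign, ucn3l was opposite to this median, and it did not pass the threshold. With each pool left out in turn the difference ranged from 1.11 (without 10 mpf) to 2.29 (without 14 mpf). With the new batch of 1 mpf as a second 'Juvenile' pool the difference was 2.08 ± 1.04 (limma adjusted p = 0.0898). The smaller SE and p of that fit take repeat records of the same cells as an independent pool, so they cannot be read as a test. Beside the fall of most genes, the median cell had 2384 to 3654 detected genes in the older plate pools, against 4722 at 1 mpf, and the part of this in the contrast was not tested.

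'Adolescent' minus 'Juvenile' was 0.66 ± 1.42 for ucn3l (limma adjusted p = 0.738), where 32% of all genes passed, 0.0274% higher and 32% lower, and the median was -0.85. Without the 4 mpf training pool it was 1.504 and without 3 mpf 0.08. The slope over the 11 plate pools was 0.07 ± 0.32 per doubling of age (limma adjusted p = 0.855), where 19.7% of the 7425 genes tested passed and the median slope was -0.20. Without the 1 mpf pool the slope of ucn3l was -0.20, and 0 genes passed. With the new batch of 1 mpf as a pool of its own, 'Adolescent' minus 'Juvenile' was 0.91 (limma adjusted p = 0.470) and the slope 0.23 (limma adjusted p = 0.465).

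Between the 2 later stages the difference in ucn3l did not pass a test. The 4 'Adult' pools averaged 3.88 ± 1.53 and the 4 'Adolescent' pools 2.72 ± 1.83 (SD over pools), with overlapping ranges of 2.47 to 6.02 and 0.18 to 4.46. The difference was 1.16 (exact permutation p = 0.429, two-sided, smallest possible p 0.0286; limma SE 0.90, adjusted p = 0.571). In the summed counts of the training ages edgeR's quasi-likelihood test gave 1.69 ± 1.28 for 'Adult' minus 'Adolescent' (unadjusted p = 0.222, adjusted p = 0.9999, 3 against 3 pools). Per doubling of age over the 7 pools the same test gave 0.81 ± 0.56 (unadjusted p = 0.182, adjusted p = 0.9998). The percentage of genes that passed was 0 in the 3 fits, in limma for these stages and in both of edgeR's. At an unadjusted p under 0.05 stood 897 of the 7305 genes tested in limma. In edgeR it was 509 of 14128 between the stages and 687 of 16183 for the slope. DESeq2 called 43 genes higher and 65 lower of 15197 between the stages, and 329 of 18943 for the slope. For ucn3l its Wald test gave 1.69 between the stages (unadjusted p = 0.152, adjusted p = 0.828). For the slope the Wald test gave 0.83 (unadjusted p = 0.0744, adjusted p = 0.647). Without the 10 mpf pool edgeR's value was 0.04 and limma's 0.45, and without the 4 mpf training pool edgeR's was 1.11 and limma's 0.32.

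**Figure D3:**
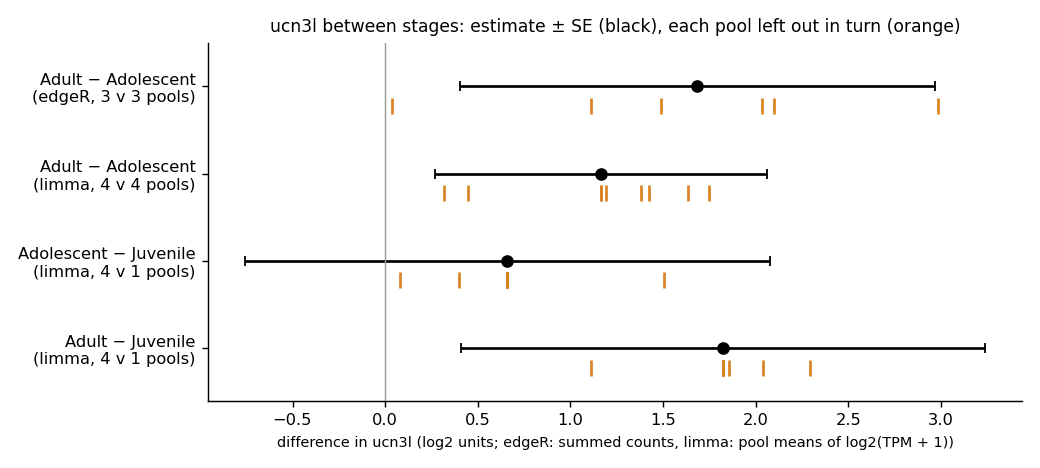
Difference in ucn3l between stages on the log2 scale, estimate ± SE (black) and the estimate with each pool left out in turn (orange). The estimates lie above 0, 1 of them ('Adolescent' minus 'Juvenile') with an SE that reaches below it, and leaving out 10 mpf moves edgeR's 'Adult' minus 'Adolescent' to 0.04.

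Pairs of pools that shared a plate or a date have 1 pool a side and so no test. By the study's methods 13 mpf cells shared a plate with the new batch of 1 mpf; they had a mean of 3.79 and 50% positive cells, and that batch had 1.55 and 23.3%, a difference of 2.25. For pools that the study's sample table dates together, 12 mpf had 3.24 and the training pool of 1 mpf 2.06, a difference of 1.18. The 1 mpf cells of the first comparison recur in the second, so the plate or date that they share cannot be told. Pools of one age differed by 1.98 to 3.68. By these dates, 3 mpf and 6 mpf were each collected on 2 dates, and which of their batches belongs to which date is not stated, so both values are given. With a batch of 6 mpf, 10 mpf shared a date and lay 2.44 or 4.42 above it. With a batch of 3 mpf, 14 mpf shared a date and the difference was -0.81 or -4.49, and for 12 mpf it was -0.04 or -3.72. A batch of 6 mpf shared a date with the 4 mpf training pool and lay 1.42 or 3.40 above it, and a batch of 3 mpf shared one with the 1 mpf training pool and lay 1.22 or 4.90 above it. Set against 1 mpf of the labelled plate or date, the older pools had higher means, whereas 12 and 14 mpf lay below the higher batch of 3 mpf. Against the lower batch 12 mpf stood level (-0.04, SE over cells 0.59) and 14 mpf differed by -0.81 (SE over cells 0.64).

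Feeding gave a similar spread. In cells of fish fed 3 times a day 11.4% had a ucn3l read (4 of 35, 3.20% to 26.7%), against 37.2% (16 of 43, 22.98% to 53.3%) in cells of siblings fed on alternate days. The mean level was 0.98 ± 0.47 with 3 feedings a day and 3.46 ± 0.70 with intermittent feeding (SE over cells). The difference of -2.48, with 1 pool each, carries no test. In size it lies within the range of differences between pools of one age, 1.98 to 3.68. Those pairs were separate batches, whereas by the study's methods the feeding pools were processed together. The positive cells had medians of 329 TPM with 3 feedings a day and 641 TPM with intermittent feeding. The 13 cells of the C1 chip had 4 positive cells, with a median of 603 TPM in them.

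Among positive cells the level also differed by pool. The median over positive cells was 1266 TPM at 10 mpf and 570 TPM at 1.5 mpf, against 96.6 TPM at 1 mpf. Of the 83 cells at 1000 TPM or more, 59 were in the 10 mpf (32), 1.5 mpf (14) and 3 mpf (13) pools, and 12 of the 13 at 3 mpf belonged to 1 of its batches. The highest cell of the series, at 10 mpf, had 13113 TPM. The SD of log2(TPM + 1) over all cells was 3.29 to 5.05 in plate pools other than the 4 mpf training pool, where it was 1.04. Over positive cells alone it was 0.68 to 2.89 in the 14 pools.

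From cell to cell, ucn3l and the insulin gene had rank correlations of either sign. Spearman's rho between the TPM of ucn3l and of ins over the cells of a pool ranged from -0.285 (3 mpf) to 0.216 (4 mpf fed 3 times a day), with a median of -0.000994 over the 14 pools, and was above 0 in 7 of them. It was within 0.2 of 0 in 12 of the 14. The lowest value rested on joining batches: within the 2 batches of 3 mpf rho was 0.0269 and 0.00367. The batch with more ucn3l had less ins, 59.4% of TPM against 78.5%. At 1 mpf rho was 0.161. Pearson's r on log2(TPM + 1) ranged from -0.260 to 0.163. These values are descriptions over cells that are not independent and carry no p.

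TPM share a fixed sum per cell, so that much ins lowers the TPM of every other gene. With TPM of ucn3l rescaled without ins the median rho was 0.0528, with depth per cell partialled out -0.0161, and with thinned reads 0.0485. In ucn3l-positive cells alone the median was -0.0821, over 13 pools with 4 to 63 such cells. The median share of TPM on ins was 66.2% in positive and 64.5% in negative cells at 10 mpf, and 57.7% in positive and 53.6% in negative cells at 1 mpf. With reads per cell, rho of ucn3l had a median of 0.0334 and ranged from -0.227 to 0.208. With genes per cell it had a median of 0.155, was above 0 in 12 of the 14 pools, and reached 0.386 in the intermittently fed pool, 0.343 at 14 mpf and 0.334 in 10 mpf cells.

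**Figure D4:**
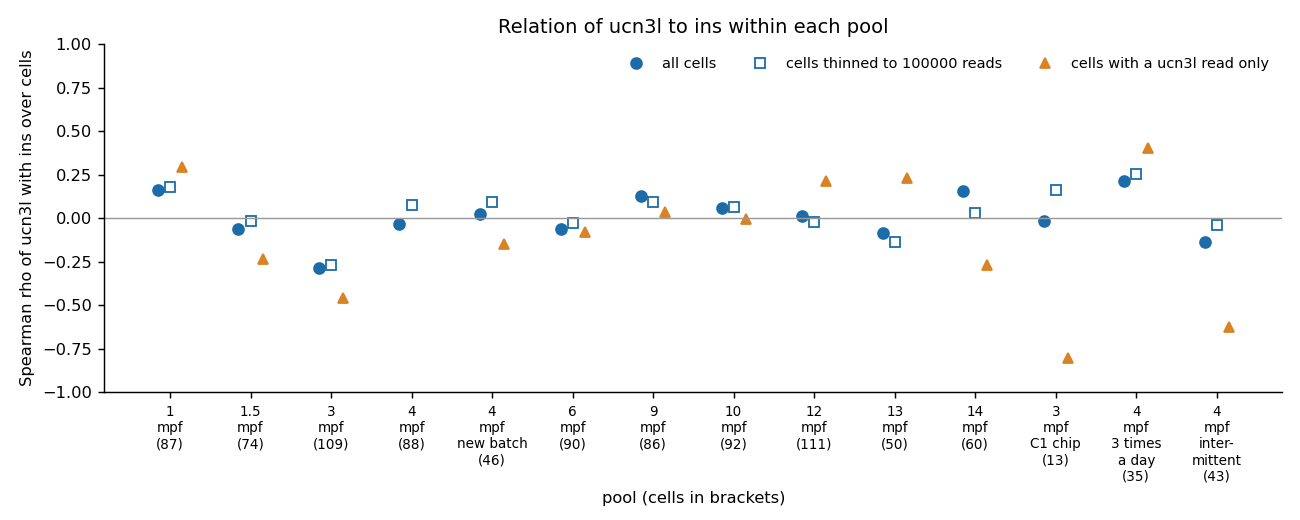
Spearman's rho between ucn3l and ins over the cells of each pool, for all cells, for cells thinned to 100000 reads and for cells with a ucn3l read. For all cells the values lie between -0.285 and 0.216, on both sides of 0; the values for positive cells rest on as few as 4 cells.

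Over the 11 plate pools the 2 genes had a positive correlation on the log2 scale, in which the same pools stood lowest in both. The mean log2(TPM + 1) of ins ran from 18.7 (4 mpf training pool) to 19.5 (9 mpf). Its correlation with the level of ucn3l over the 11 plate pools was r = 0.550, where 90% of the 2017 genes compared lay between -0.561 and 0.385. The 4 mpf training pool was lowest in both genes and held 6 of the 12 cells with ins under 10% of TPM. The 1 mpf pool was next lowest in both, with 2.06 for ucn3l and 18.8 for ins. In the other plate pools ins had 19.1 to 19.5. The order depends on the scale. As a mean share of TPM, ins had 61.9% in the 4 mpf training pool. That was close to 62.2% at 1.5 mpf and 63.8% at 10 mpf, the 2 pools highest in ucn3l. The log2 mean of the 4 mpf training pool had an SD of 2.51 over cells. How far r for ins rests on the low pools and on their cells poor in ins was not tested. MNX1, a transcription factor of the beta-cell lineage, stood first (r = 0.688), with 6.72 at 10 mpf and 3.42 at 9 mpf, and had r = 0.492 without 10 mpf. Next to it came GATD3 (0.667), RPL31 (0.648) and RPL8 (0.617), both ribosomal proteins, OTC (0.607), which is ornithine transcarbamylase of the urea cycle, and tuba8l4 (0.5999), an alpha-tubulin. The opposite pattern was tighter. ITM2B (r = -0.923), PSAP (-0.845), the precursor of the lysosomal saposins, and slc7a2 (-0.840), a transporter of cationic amino acids, were the 3 lowest and were highest in the 4 mpf training pool. They had values of -0.861, -0.752 and -0.796 without that pool. All of these were chosen for their r from many genes over 11 points that share their libraries and differ in depth.

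From cell to cell within pools the most similar genes reached only weak values. Averaged over pools, rho with ucn3l was highest for FAM43B (0.275, over 12 pools), PTN (0.236), which encodes the growth factor pleiotrophin, SYNGR3 (0.225), a synaptic vesicle protein, ABHD10 (0.215), CKB (0.212), the brain-type creatine kinase, and PYY (0.205, over 13 pools), which encodes the hormone peptide YY. PTN and CKB were above 0 in 13 of 14 pools. The lowest were krt18a.1 (-0.277), a keratin of epithelial cells, TM4SF4 (-0.252) and RPL28 (-0.192), and krt18a.1 was below 0 in all 14 pools. Of the 4877 genes compared, 90% lay between -0.0602 and 0.0908, and ins had 0.0057.

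Cells rich in another hormone differed in how often they held ucn3l. The table's SST is the row matched to sst1.1, a somatostatin gene, and it took at least 10% of the TPM in 29 cells. Of these cells, a set singled out after its values were seen, 24 (82.8%, exact 95% interval 64.2% to 94.2%) had a ucn3l read, against 37.2% of the other cells of the same pools, weighted by pool. That interval covers counting error only, since cells joined from several pools are not independent replicates. The share was higher in the SST-rich cells in each of the 10 pools that had any, 5 of which had a single such cell. At 6 mpf it was 10 of 13 cells against 22 of 77, and outside 6 mpf 14 of 16. The 6 mpf values join 2 batches, with 20.5% and 47.1% positive cells, and were not taken apart here. Their ins share was a median of 42.1% of TPM and their median number of genes 4026, above the medians of 2038 to 3654 of all pools but those of 1 mpf. At a limit of 1% of TPM in place of 10%, 47 of 79 cells (59.5%) had a ucn3l read, against 41.7% of other cells, with a higher share in 8 of 12 pools.

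For the other hormones the share at the 10% limit was lower than in the remaining cells of the same pools, in sets of 2 to 14 cells. Cells with at least 10% of TPM on sst2, a second somatostatin gene, had a ucn3l read in 1 of 7 cases (14.3%), against 27.3% in other cells of their pools. For GCG, a glucagon gene, it was 3 of 14 (21.4%, 4.66% to 50.8%) against 35.4%, for gcga 0 of 5 against 9.14%, for sst1.2, another somatostatin gene, 0 of 3 against 21.96%, and for ghrl, the ghrelin gene, 0 of 2 against 48.9%. With 0 of 5 gcga-rich cells the exact interval reaches 52.2%, and these intervals too cover counting error only.

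At the 1% limit these differences did not all keep their sign. For sst1.2 the share was then 41.2% (7 of 17 cells) against 33.8%, with 5 pools higher and 4 lower, and for GCG 35.7% (10 of 28) against 36.4%, with 5 pools higher and 5 lower. It was 27.8% against 31.8% for gcga (18 cells), 20% against 36.7% for sst2 (15 cells) and 0 of 5 against 32.6% for ghrl. Without the 55 cells that were poor in ins or rich in another hormone, a choice made after seeing the data, 39.1% of cells had a ucn3l read, and 'Adult' minus 'Juvenile' was 1.72 (limma adjusted p = 0.316).

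**Figure D5:**
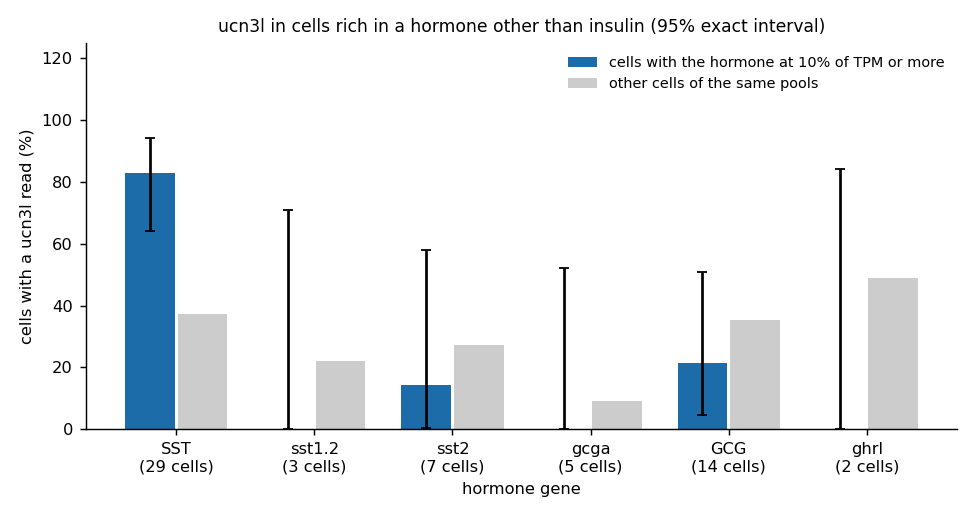
Share of cells with a ucn3l read among cells in which the named hormone gene takes at least 10% of TPM (blue) and among the other cells of the same pools (grey, weighted by pool). The exact 95% intervals cover counting error only. SST-rich cells reach 82.8% against 37.2%; the remaining sets hold 2 to 14 cells.

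The other ligands of the family with a row had reads in fewer cells than ucn3l, over all pools together. The row UCN, urocortin 1, which binds both receptors of the family in mammals, had a read in 20.9% of cells and a mean of 31.3 TPM, beside 39.8% and 289 TPM for ucn3l. Its pool means of log2(TPM + 1) were 3.33 for 1 mpf, 3.71 for 10 mpf and 2.54 for 13 mpf, and 0.08 to 1.11 in the other 8 plate pools. For UCN, 'Adolescent' minus 'Juvenile' was -2.67 ± 0.98 on the log2 scale (limma adjusted p = 0.0540) and 'Adult' minus 'Juvenile' -1.53 (adjusted p = 0.199). Both genes were high at 10 mpf, and UCN was high at 1 mpf, where ucn3l was low. Of the other members with a row, crha had a read in 2 cells, CRHBP, a CRH-binding protein, in 1, and CRH in 0.

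Receptors were close to absent from these cells. CRHR1 had a read in 31 cells (3.15%), and both rows of CRHR2, the receptor of urocortin 3, had none. The somatostatin receptors were scarcely seen either, each with a mean of at most 0.10 TPM.

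Genes that process peptide hormones were present in most cells. PCSK1, a convertase that cuts prohormones, had a read in 97.4% of cells, CPE, which trims the cut ends, in 99.6%, and PAM, which amidates them, in 97.8%. The lowest shares in the list were 77.1% for the SCG5 row ENSDARG00000077045 and 91.1% for PCSK2. Of the 7 rows of this list tested over the 11 plate pools 0 passed for the slope with age, beside 0.189% of all genes higher and 19.5% lower. In 'Adult' minus 'Juvenile' 0 were higher and 1 was lower, the SCG5 row ENSDARG00000077045, whose product assists PCSK2 (-2.56 ± 0.90, limma adjusted p = 0.0375), and the median of the list was -0.93, against -1.01 over all genes. Within pools the mean rho with ucn3l was 0.165 for CPE, 0.157 for PCSK1 and 0.148 for PAM. It was 0.130 for the SCG5 row ENSDARG00000032126 and 0.108 for PCSK2. These values were in the upper 5% of the genes compared and weak as values. The other SCG5 row (0.0592) and pcsk1nl (-0.0082) were not in that upper part.

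Among 30 other rows for known genes of beta-cell identity and maturation, 20 were tested. With age 1 of them rose and 0 fell, beside 0.189% and 19.5% of all genes, and the median slope was -0.20, as over all genes. The one that rose was ins, by 0.12 ± 0.04 per doubling of age (limma adjusted p = 0.0441), a call that needs the 1 mpf pool, since 0 genes passed without it. In 'Adult' minus 'Juvenile' 1 was higher and 4 were lower, beside 0.0958% and 43.9% of all genes, with a median of -0.96 against -1.01. The higher one was ins (0.55 ± 0.19, adjusted p = 0.0381). The lower ones were SYT4, a synaptotagmin (-3.03, adjusted p = 0.0385), ERO1A, an oxidase of the endoplasmic reticulum (-1.91, adjusted p = 0.00665), and the transcription factors RFX6 (-1.38, adjusted p = 0.0286) and NKX6-1 (-0.91, adjusted p = 0.0265). MAFA, a transcription factor of mature beta-cells in mouse, had a read in 0.305% of cells, and SLC30A8, the zinc transporter of insulin granules in mammals, also in 0.305%.

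In the list of genes of immature cells or repressed in mature ones, 5 of 15 rows were tested. With age 0 rose and 1 fell, the MYC row ENSDARG00000045695 (-0.55 ± 0.15 per doubling, limma adjusted p = 0.0245), beside the same shares of all genes. In 'Adult' minus 'Juvenile' 2 of the 5 were lower, where 43.9% of all genes were: this MYC row (-2.37, adjusted p = 0.0104) and HK1, a hexokinase (-1.63, adjusted p = 0.0270).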

How the data were processed

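Per the labels, sorted cells were made into libraries with a SMART-Seq v4 kit; the study's methods name Smart-Seq2. The authors trimmed reads with Trim Galore, aligned them with HISAT2 to GRCz10 and counted them per gene with HTSeq (versions and annotation release are not given in the sources used here). They deposited raw counts for the training ages and TPM for all cells. Columns of 1.5 mpf and the C1 chip (library numbers) and of the new 4 mpf batch (names shared with training cells) were tied to groups by the title of their table. Gene lengths recovered from counts and TPM of the training cells gave whole reads in the cohorts (100% within 0.02), used for depth, thinning and detection.

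Counts were summed per pool and fitted with edgeR 4.0.16 (TMM, filterByExpr; DESeq2 1.42.0 as an alternative). Pool means of log2(TPM + 1) were fitted with limma 3.58.1 for genes with a pool mean of at least 1. Fits were tested on simulated data. edgeR standard errors are the fold change over the square root of F. Correlations used 100000 permutations, or all orders of the 7 pools. The threshold on adjusted p was 0.05. Exact Clopper-Pearson intervals are 95%. The design had planned 12 plate pools; after the repeated cells were found, the new batch of 1 mpf was left out, and 2 added alternatives keep it as a pool or average both records of a cell. Replicates are pools, with 1 pool per group, so p-values measure the spread between pools, in which age, fish, date and depth cannot be told apart. The pools of 3 mpf and 6 mpf each join 2 batches, except where the batches are taken apart. ucn3l and the gene lists were chosen with earlier results of these data known. Named genes were the fixed lists, and the 6 highest and 3 lowest genes by likeness over pools (mean of at least 2) and within pools (a read in 20% of cells).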

Additional observations from a re-analysis of the deposited data

How the results depend on the processing

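Over 16 results and 200 alternatives no tested result crossed its threshold. None had passed at the main setting, so there was no called direction that could be reversed. Some alternatives could not have passed. With 1 pool left out the smallest possible exact permutation p was 0.0571 for 'Adult' against 'Adolescent'. For the older pools against 1 'Juvenile' pool it was at least 0.222. Values that did not pass changed sign in 9 alternatives. The slope over plate pools was -0.0509 with the batches of 3 and 6 mpf as separate pools, and with each pool left out in turn it ranged from -0.20 (without 1 mpf) to 0.38. Likewise the correlations with age over plate pools ranged from -0.0838 to 0.269 for the level, -0.0371 to 0.312 for the share and -0.0809 to 0.281 for the spread, lowest without the 4 mpf training pool. The median rho with ins within pools, which had no test, ranged from -0.0821 in positive cells alone to 0.0550 without the cells poor in ins or rich in another hormone. Counts of genes called moved by over 1.5 times: DESeq2 called 43 genes higher and 65 lower between 'Adult' and 'Adolescent' and 329 for the slope, where edgeR called 0, and edgeR's slope called 9 genes without a filter on low counts and 1 both without 10 mpf and without the cells poor in ins or rich in another hormone. For limma's slope, 'Adolescent' minus 'Juvenile' and 'Adult' minus 'Juvenile', 1464, 2340 and 3211 genes were called, 4144, 4057 and 4949 with the new batch of 1 mpf as a pool of its own, 246, 3977 and 4966 without a filter on low values, 3, 307 and 375 from averaged TPM, and 773, 1295 and 1919 from TPM without ins; the cause was not tested. The number of genes tested differed between these settings, so the counts are not like for like. At the main setting and with the new batch apart it was 7425 for the slope and 7305 for each contrast. It was 23854 and 23488 without a filter on low values, 15372 and 15103 from averaged TPM, and 8847 and 8658 without ins. The slope also called 636 genes with the batches apart and 1 with the C1 chip and feeding pools added. Without 1, 3, 9, 12 and 14 mpf it called 0, 2369, 555, 924 and 634. With the mean of both records of the repeated 1 mpf cells, 'Adult' minus 'Juvenile' was 1.83 (adjusted p = 0.283); both alternatives for these cells were added after seeing the data. No paired analysis was possible because replicate numbers only count the cells of a group; dates are shared by few pools, and which batch of 3 and 6 mpf belongs to which is not stated. The spread between pools of one age, 2.18 log2 units, limits every comparison of ages.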
